A study of Mus musculus with 21 samples.

Results

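The genes described here are 9 potassium channel genes of the heart, chosen by symbol from the per-heart count tables: Kcnip2, Kcnd2, Kcnd3, Kcna5, Kcnq1, Kcnh2, Kcnj2, Kcnj3 and Kcnj11. They are 9 of the 53801 genes in those tables, and all 9 were abundant enough to be among the 17064 genes tested. The values come from 15 mouse heart libraries, called hearts below, that were made from total RNA of tissue labelled border zone, the muscle beside an infarct, and labelled D7, read here as day 7. Of these, 4 were wild type (WT) with myocardial infarction (MI) and FAPI, read from the series title as an inhibitor of the protease Fap, 4 carried the FapKO genotype and had MI, 4 were WT with MI alone, and 3 were WT with a sham operation, and they are called FAPI, FapKO, MI and sham hearts. The study asked whether Fap, fibroblast activation protein, affects repair of the heart after MI. The labels do not name the inhibitor's compound, dose or schedule, the deleted part of Fap or the strain, and they do not say that each library is its own animal, so the p-values measure the spread between these libraries, which may in part be technical.

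Potassium channels carry the outward currents that end the cardiac action potential and the inward rectifier currents that hold the resting potential. In the mouse ventricle, where the action potential is short, the fast transient outward current carries much of the early repolarisation, through Kv4 pores encoded by Kcnd2 and Kcnd3 with the calcium-binding accessory subunit KChIP2 encoded by Kcnip2. Loss of transient outward current and lower Kcnip2 and Kcnd messages are textbook features of the failing and infarcted ventricle.

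Gene counts per heart were between 18474138 and 37287355. Levels are given as CPM, the gene count divided by a library size scaled with TMM. TMM sets library sizes on the assumption that most genes do not differ. With TMM, 11783 of the 17064 genes tested were called between MI and sham hearts, so most did differ there. The TMM factors were 0.929 to 1.14 in FAPI, 0.888 to 0.986 in FapKO, 1.24 to 1.55 in MI and 0.626 to 0.697 in sham hearts. Fap, which checks the labels, lay between 6.47 and 10.4 CPM in FAPI hearts, between 1.79 and 2.36 CPM in FapKO hearts, between 9.40 and 13.2 CPM in MI hearts and between 2.71 and 3.86 CPM in sham hearts. FapKO hearts were thus the lowest, though not at 0. The mean log2 CPM of 24 cardiomyocyte markers was 9.94 ± 0.409 in FAPI, 10.4 ± 0.146 in FapKO, 8.17 ± 0.638 in MI and 11.04 ± 0.0967 in sham hearts (SD, n = 4, 4, 4 and 3), with none of the 24 at 0 in any group. MI replicate 3 stood apart at 9.10, the highest of the MI hearts. Counts scaled to the library total instead of TMM moved the median gene of MI over sham hearts to 1.23, against 0.14 with TMM (log2). With that scaling 12663 of 14700 called genes were higher in MI than in sham hearts, against 6331 of 11783 with TMM. In FAPI against MI hearts 1448 of 9933 called genes were higher in FAPI than in MI hearts, against 3053 of 5081 with TMM, and 2076 of 12531 were higher in FapKO than in MI hearts, against 4271 of 8700. Against sham hearts, total-count scaling gave 10769 of 12401 called genes higher in FAPI hearts, against 4987 of 9517 with TMM, and 9169 of 9994 higher in FapKO hearts, against 3281 of 6740. Between FAPI and FapKO hearts it gave 1573 of 2318 called genes higher in FAPI hearts, against 1203 of 2247.

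Sequence is shown for the promoters of 3 of the 9 genes. Kcnip2 and Kcnj3 had the largest differences between MI and sham hearts and were the members that differed between FAPI and FapKO hearts, and Kcna5 was the member whose mean in FAPI hearts lay furthest above that in FapKO hearts. Each window runs from 250 bases before to 50 bases after the gene start in RefSeq (GRCm38.p6, the build also called mm10), 5′ to 3′ on the gene's strand, and 7 of the 9 members had an entry. Capitals mark CACCC or its reverse complement GGGTG, the letters of a box bound by Krüppel-like factors such as KLF15, which in mice sets the daily rhythm of Kcnip2. The windows lie at chr19:45816014-45816313 (minus strand) for Kcnip2, chr2:55435720-55436019 (plus strand) for Kcnj3 and chr6:126535506-126535805 (minus strand) for Kcna5.
Kcnip2: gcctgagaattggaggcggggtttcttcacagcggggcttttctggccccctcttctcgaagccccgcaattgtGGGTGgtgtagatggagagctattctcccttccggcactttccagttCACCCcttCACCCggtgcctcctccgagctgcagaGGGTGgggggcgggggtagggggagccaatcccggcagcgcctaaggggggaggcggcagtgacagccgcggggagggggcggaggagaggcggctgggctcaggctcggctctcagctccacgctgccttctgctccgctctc
Kcnj3: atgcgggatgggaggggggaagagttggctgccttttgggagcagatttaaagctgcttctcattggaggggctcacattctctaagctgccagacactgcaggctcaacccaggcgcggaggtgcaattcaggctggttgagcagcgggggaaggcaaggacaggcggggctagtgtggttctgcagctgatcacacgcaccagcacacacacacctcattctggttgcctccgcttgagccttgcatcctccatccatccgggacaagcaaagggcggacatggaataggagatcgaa
Kcna5: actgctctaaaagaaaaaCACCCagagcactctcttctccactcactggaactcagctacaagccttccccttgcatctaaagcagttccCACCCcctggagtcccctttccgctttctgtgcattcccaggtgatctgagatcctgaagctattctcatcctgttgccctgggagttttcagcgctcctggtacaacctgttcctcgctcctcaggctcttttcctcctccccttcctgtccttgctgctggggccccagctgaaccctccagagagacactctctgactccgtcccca
The Kcnip2 window held 4 matches, the Kcna5 window 2 and the Kcnj3 window 0. Of the other members, Kcnh2 had 4 matches, Kcnd3 had 3, and Kcnd2 and Kcnj2 had 1 each. The Kcnh2 window, chr5:24329542-24329841 (minus strand), lies inside the gene by the gene coordinates given below, away from the start given there. By those coordinates the Kcna5, Kcnd2 and Kcnd3 windows lie wholly before the gene start. Among 32851 promoter windows of this length, 57.5% held at least 1 match, with a median of 1. GATAA or TTATC, the letters of a GATA box, was matched once in Kcnj2 and in none of the other 6 windows, against 25.4% of all windows. The motifs share no letters of one match. A match is a description of the letters and not of a bound site.

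All 9 genes were lower in MI than in sham hearts, by log2 differences between -4.58 for Kcnip2 and -1.58 for Kcnq1. The test was edgeR's quasi-likelihood F test with Benjamini-Hochberg adjustment over all genes tested, at an adjusted p of 0.05. Among all 17064 genes, 32% were called lower and 37.1% higher in MI than in sham hearts, and the median log2 difference of the 9 was -2.35 against 0.14 for all genes. In bulk tissue, fewer cells of a type and less RNA per cell cannot be told apart. All 12 sarcomere markers and all 12 other cardiomyocyte markers were also lower in MI hearts, with medians of -2.14 and -3.52. The part of cardiomyocyte content in the 9 differences was not tested on this scale, and a second quantity, relative to those markers, is given further on. Total-count scaling ended 1 call, that of Kcnq1 (-0.52, adjusted p = 0.0623).

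Higher levels than in MI hearts were found for 7 of the 9 genes in FAPI hearts and for 9 of 9 in FapKO hearts. Among all genes tested, 17.9% were called higher and 11.9% lower in FAPI than in MI hearts, and the median of the 9 was 1.17, against -0.03 for all genes. In FapKO against MI hearts, 25% of all genes were called higher and 26% lower, and the median of the 9 was 1.33, against -0.08. Kcnd3 (0.66 ± 0.31 SE, adjusted p = 0.113 in edgeR) and Kcnj2 (0.22 ± 0.29 SE, adjusted p = 0.597) were the members not called in FAPI hearts. Total-count scaling ended the calls of Kcnd2 and Kcnh2 in FAPI hearts (adjusted p = 0.0668 and 0.132 in edgeR). It also ended those of Kcnj2 and Kcna5 in FapKO hearts (0.116 and 0.0709). A fit of FAPI and MI hearts alone ended the calls of Kcnd2 and Kcnh2 too (0.0629 and 0.0764). Leaving out single hearts gave 5 to 7 members called in FAPI hearts and 9 in FapKO hearts. The 24 cardiomyocyte markers were all higher than in MI hearts in both groups, and these 2 comparisons share their MI hearts.

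Levels were below those of sham hearts for 8 of the 9 genes in FAPI hearts and for 7 in FapKO hearts. All sham hearts were WT, and no FapKO heart had a sham operation. FapKO and sham hearts thus differ in genotype and in operation, and the parts of the 2 cannot be told apart. Among all genes tested, 26.5% were called lower and 29.2% higher in FAPI than in sham hearts, and 20.3% lower and 19.2% higher in FapKO than in sham hearts. The count of 7 in FapKO hearts became 4 with total-count scaling, 4 without sham replicate 2, 4 without FapKO replicate 2 and 5 without sham replicate 3 or without FapKO replicate 4, and it was 9 in a fit of these 2 groups alone. Kcnq1 was not called in either group, at -0.48 ± 0.28 in FAPI and -0.47 ± 0.29 in FapKO hearts (log2, SE, adjusted p = 0.166 and 0.204 in edgeR). It was called in FAPI hearts without FAPI replicate 4 (-0.70, 0.0440) and in FapKO hearts in a fit of these 2 groups alone (-0.41, 0.0272). Kcnj11 was not called in FapKO hearts at -0.68 ± 0.29 (adjusted p = 0.0707), but was with DESeq2, limma-voom, no filter on low counts or a fit of these 2 groups alone (adjusted p between 0.00353 and 0.0482). Between FAPI and FapKO hearts, 2 of the 9 were called, both lower in FAPI hearts, beside 6.12% of all genes called lower and 7.05% called higher. The count of 2 became 1 without FapKO replicate 3 and 5 without FAPI replicate 4, and 4 with DESeq2.

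**Figure D1:**
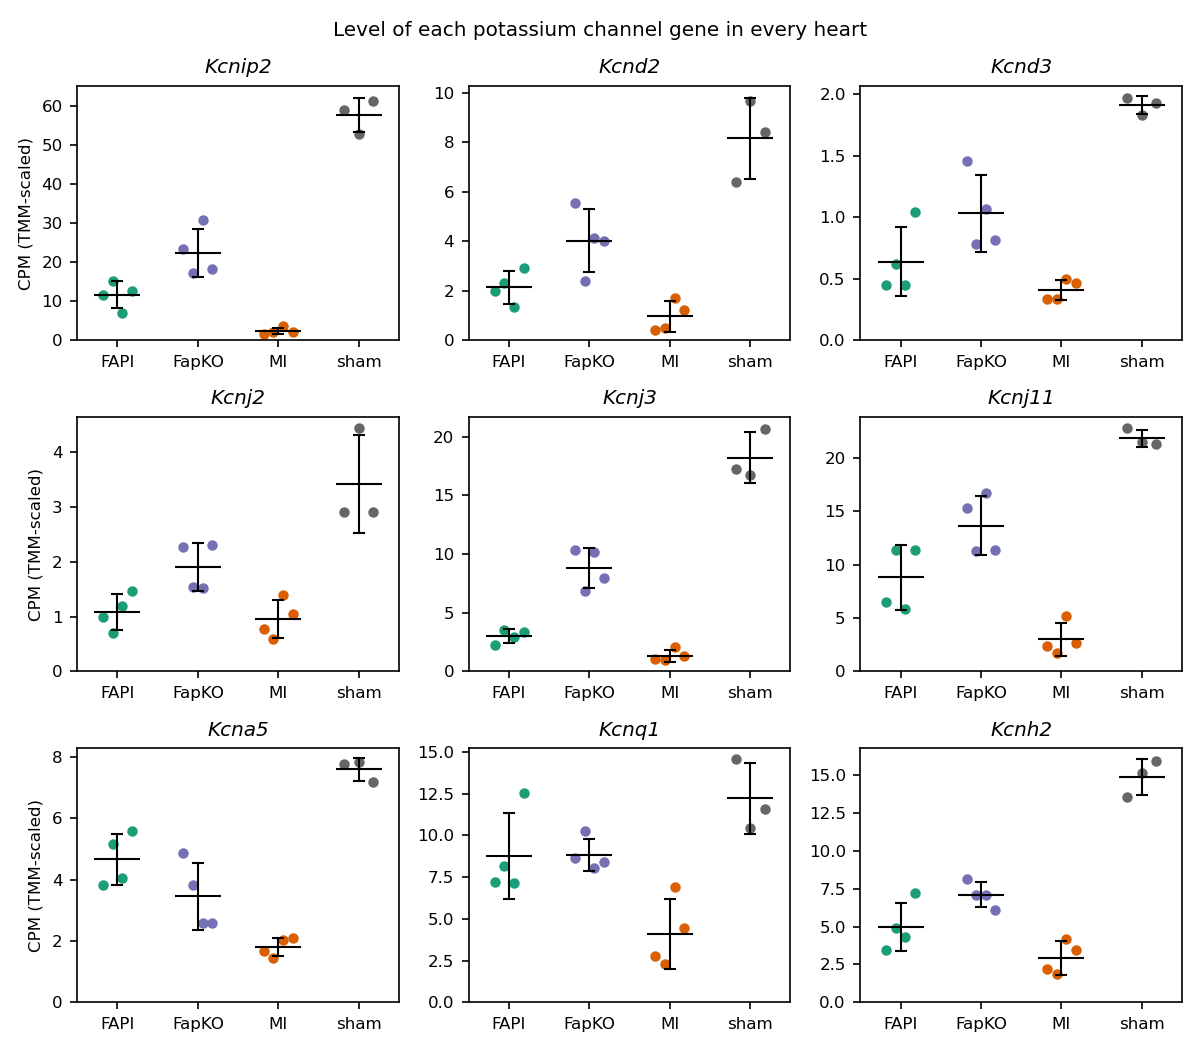
TMM-scaled CPM of each of the 9 genes in every heart (points), with the group mean and SD (black), for FAPI, FapKO, MI and sham hearts (4, 4, 4 and 3 hearts). Sham hearts hold the highest group mean and MI hearts the lowest in all 9 panels, and FapKO hearts lie above FAPI hearts in Kcnip2, Kcnj2 and Kcnj3 without overlap.

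Kcnip2 (ENSMUSG00000025221.15, chr19:45791839-45816061, minus strand, mm10) encodes KChIP2, which brings Kv4 pores to the membrane and slows their inactivation. It had 11.7, 15.2, 7.00 and 12.7 CPM in FAPI hearts, 23.3, 17.3, 30.8 and 18.2 CPM in FapKO hearts, 1.70, 2.14, 3.67 and 2.08 CPM in MI hearts, and 58.8, 52.8 and 61.3 CPM in sham hearts. No group overlapped another, and the order of the groups was sham, FapKO, FAPI and MI. The mean was 20.2% of the sham mean in FAPI hearts, 38.9% in FapKO hearts and 4.16% in MI hearts. Kcnip2 had the largest fold change of the 9 in both comparisons with MI hearts, at 2.28 ± 0.26 in FAPI hearts (log2, SE, adjusted p = 7.03e-05 in edgeR) and 3.22 ± 0.26 in FapKO hearts (adjusted p = 2.58e-07). FAPI hearts were below FapKO hearts by a log2 difference of -0.94 ± 0.23 (adjusted p = 0.0146 in edgeR). Without FapKO replicate 3, the highest of its group, that difference was -0.75 with an adjusted p of 0.0657.

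Kcnd2 (ENSMUSG00000060882.5, chr6:21215503-21729805, plus strand) encodes Kv4.2, a pore of the fast transient outward channel in the mouse ventricle. It had 2.00, 2.30, 1.35 and 2.92 CPM in FAPI hearts, 5.54, 2.42, 4.13 and 4.02 CPM in FapKO hearts, 0.433, 0.490, 1.71 and 1.23 CPM in MI hearts, and 6.41, 9.67 and 8.41 CPM in sham hearts. FAPI hearts overlapped both MI and FapKO hearts, and sham hearts lay above all others. Kcnd2 was higher than in MI hearts by 1.17 ± 0.37 in FAPI hearts (log2, SE, adjusted p = 0.0269 in edgeR) and by 2.07 ± 0.37 in FapKO hearts (adjusted p = 2.04e-04). The first call was lost without MI replicate 1, MI replicate 2, FAPI replicate 2 or FAPI replicate 4 (adjusted p between 0.0571 and 0.0980), with total-count scaling (0.76, 0.0668) and in a fit of these 2 groups alone (1.15, 0.0629). FapKO hearts were below sham hearts by -1.02 ± 0.35 (adjusted p = 0.0279 in edgeR), a call lost without sham replicate 2 or 3 or FapKO replicate 2 or 4 (adjusted p between 0.0523 and 0.111) and with total-count scaling (-0.49, 0.199).

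Kcnd3 (ENSMUSG00000040896.16, chr3:105452330-105674002, plus strand) encodes Kv4.3, the other Kv4 pore of this current, and was the least abundant member, with 11 to 36 counts per heart. It had 0.448, 0.621, 0.448 and 1.04 CPM in FAPI hearts, 1.46, 0.784, 1.07 and 0.819 CPM in FapKO hearts, 0.340, 0.335, 0.498 and 0.462 CPM in MI hearts, and 1.97, 1.83 and 1.93 CPM in sham hearts. FAPI replicate 4 lay within the FapKO hearts and FAPI replicates 1 and 3 within the MI hearts. FapKO hearts were above MI hearts by 1.33 ± 0.30 (log2, SE, adjusted p = 0.00140 in edgeR) and below sham hearts by -0.89 ± 0.29 (adjusted p = 0.0231). The call against sham hearts was lost without any single sham heart, without FapKO replicate 2 or 4 (adjusted p between 0.0521 and 0.0728) and with total-count scaling (-0.36, 0.259). Kcnd3 shares 1.72% of its exon length with Kcnd3os on the opposite strand. Whether counting used strand is not given in the sources used here, so reads of antisense partners cannot be told apart.

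The ratio of Kcnip2 to Kcnd2 counts within a heart does not depend on library scaling. It was 5.80, 6.57, 5.15 and 4.35 in FAPI hearts, 4.20, 7.13, 7.44 and 4.51 in FapKO hearts, 3.83, 4.28, 2.14 and 1.68 in MI hearts, and 9.14, 5.44 and 7.27 in sham hearts. All FAPI hearts lay above all MI hearts, and FapKO replicate 1 lay just under the highest MI heart. The mean log2 ratio was 2.44 ± 0.254 in FAPI, 2.49 ± 0.432 in FapKO, 1.47 ± 0.653 in MI and 2.83 ± 0.375 in sham hearts (SD, n = 4, 4, 4 and 3). A two-sided exact permutation test gave 0.0286 for FAPI over MI hearts (difference 0.97), the smallest p that 4 against 4 hearts can give. It gave 0.0571 for FapKO over MI hearts (1.02). It also gave 0.0571 for MI over sham hearts (-1.36), which is the smallest p that 4 against 3 hearts can give. After Benjamini-Hochberg adjustment over the 12 ratio tests, each of the 3 exact tests had an adjusted p of 0.171, so none passed.

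The ratio of Kcnd3 to Kcnd2 counts was 0.231, 0.276, 0.341 and 0.360 in FAPI hearts, 0.266, 0.329, 0.262 and 0.208 in FapKO hearts, 0.793, 0.692, 0.297 and 0.385 in MI hearts, and 0.311, 0.192 and 0.233 in sham hearts. MI replicates 1 and 2 were the highest of all hearts, and MI replicates 3 and 4 lay near the FAPI hearts. The mean log2 ratio was -1.75 ± 0.294 in FAPI, -1.93 ± 0.271 in FapKO, -0.998 ± 0.676 in MI and -2.06 ± 0.351 in sham hearts (SD, n = 4, 4, 4 and 3). No exact permutation test of this ratio passed after adjustment, the smallest being 0.171 for FapKO over MI hearts (difference -0.93). In MI hearts the ratio rests on 14 to 55 counts of Kcnd2 and 11 to 16 counts of Kcnd3.

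**Figure D2:**
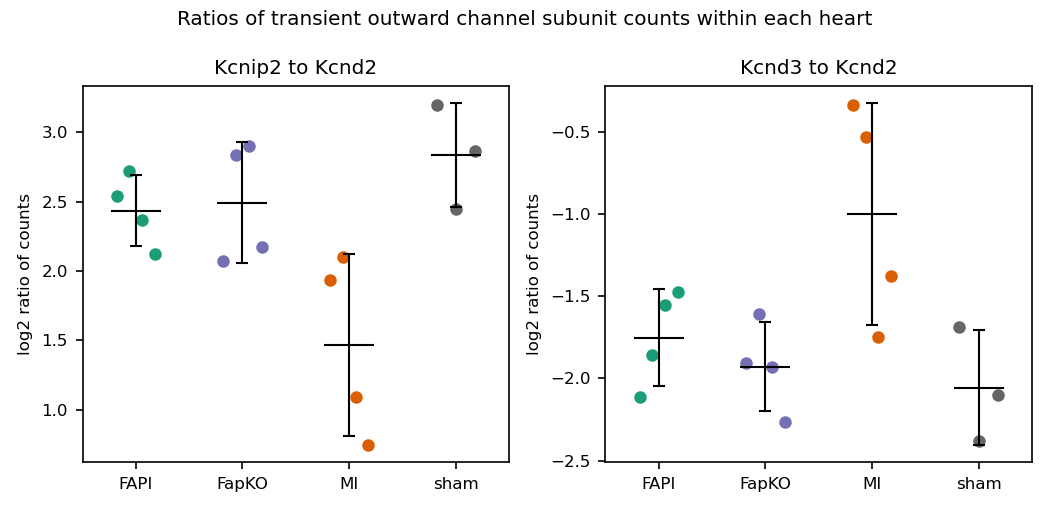
Log2 ratio of counts of Kcnip2 to Kcnd2 (left) and of Kcnd3 to Kcnd2 (right) within each heart (points), with group mean and SD (black), for FAPI, FapKO, MI and sham hearts. On the left the FAPI points lie above all MI points, and on the right 2 MI hearts lie above all others.

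Kcna5 (ENSMUSG00000045534.4, chr6:126532551-126535412, minus strand) encodes Kv1.5, the pore of a rapidly activating, slowly inactivating outward current in mouse ventricle. It had 3.82, 5.15, 4.07 and 5.57 CPM in FAPI hearts, 4.85, 3.81, 2.58 and 2.57 CPM in FapKO hearts, 1.67, 1.44, 2.02 and 2.08 CPM in MI hearts, and 7.76, 7.84 and 7.17 CPM in sham hearts. FAPI and FapKO hearts lay wholly above MI and below sham hearts, and overlapped each other. Kcna5 was higher than in MI hearts by 1.37 ± 0.20 in FAPI hearts (log2, SE, adjusted p = 2.09e-04 in edgeR) and by 0.94 ± 0.20 in FapKO hearts (adjusted p = 0.00113). Total-count scaling ended the second call (0.40, adjusted p = 0.0709), and it ended the call of FAPI below sham hearts (-0.71 ± 0.20 with TMM, -0.05 with total counts). FAPI hearts were above FapKO hearts by 0.43 ± 0.19, which was not called (adjusted p = 0.143 in edgeR) but was without FapKO replicate 1 (0.63, 0.0428).

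Kcnq1 (ENSMUSG00000009545.14, chr7:143106362-143427042, plus strand) encodes the pore of the slow delayed rectifier. It had 7.20, 8.15, 7.17 and 12.6 CPM in FAPI hearts, 8.63, 10.3, 8.07 and 8.38 CPM in FapKO hearts, 2.75, 2.32, 6.94 and 4.47 CPM in MI hearts, and 14.6, 10.5 and 11.6 CPM in sham hearts. Its means in FAPI and FapKO hearts were 71.8% and 72.4% of the sham mean, the highest share of any member in each group, and 33.7% in MI hearts. FAPI replicate 4 lay among the sham hearts, and the other FAPI hearts among or below the FapKO hearts. Kcnq1 was higher than in MI hearts by 1.10 ± 0.27 in FAPI hearts (log2, SE, adjusted p = 0.00630 in edgeR) and by 1.11 ± 0.27 in FapKO hearts (adjusted p = 0.00286). Kcnq1ot1, the long antisense RNA of its locus, shares 2.96% of the Kcnq1 exon length and had another pattern, with 49.2 ± 7.77 CPM in FAPI, 38.5 ± 3.65 CPM in FapKO, 50.9 ± 12.3 CPM in MI and 24.8 ± 3.27 CPM in sham hearts (SD). It was higher in MI than in sham hearts by 1.04 ± 0.17 (adjusted p = 5.47e-05 in edgeR).

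Kcnh2 (ENSMUSG00000038319.14, chr5:24319589-24351604, minus strand) encodes the ERG pore of the rapid delayed rectifier. It had 3.48, 4.93, 4.33 and 7.19 CPM in FAPI hearts, 8.16, 7.09, 7.07 and 6.12 CPM in FapKO hearts, 2.20, 1.86, 4.20 and 3.47 CPM in MI hearts, and 13.6, 15.1 and 15.9 CPM in sham hearts. FAPI hearts overlapped both MI and FapKO hearts, and sham hearts stood clear of all others. Kcnh2 was higher than in MI hearts by 0.78 ± 0.24 in FAPI hearts (log2, SE, adjusted p = 0.0204 in edgeR) and by 1.29 ± 0.24 in FapKO hearts (adjusted p = 2.71e-04). The first call was lost without MI replicate 1, MI replicate 2 or FAPI replicate 4 (adjusted p between 0.0640 and 0.0987), with total-count scaling (0.36, 0.132) and in a fit of these 2 groups alone (0.76, 0.0764).

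Kcnj2 (ENSMUSG00000041695.2, chr11:111066164-111076821, plus strand) encodes Kir2.1, the main pore of the inward rectifier current that sets the resting potential. It had 0.999, 0.694, 1.20 and 1.47 CPM in FAPI hearts, 2.27, 1.53, 1.51 and 2.30 CPM in FapKO hearts, 0.774, 0.593, 1.40 and 1.04 CPM in MI hearts, and 2.90, 4.44 and 2.90 CPM in sham hearts. The FAPI and MI hearts overlapped over most of their range, and the lowest FapKO heart lay just above both. FapKO hearts were above MI hearts by 1.00 ± 0.28 (log2, SE, adjusted p = 0.00683 in edgeR), which total-count scaling ended (0.48, 0.116), and below sham hearts by -0.84 ± 0.29 (adjusted p = 0.0279). The call against sham hearts was lost without sham replicate 2 or FapKO replicate 2 or 3 (adjusted p between 0.0647 and 0.166) and with total-count scaling (-0.30, 0.363). FAPI hearts were below FapKO hearts by -0.78 ± 0.28, not called at an adjusted p of 0.0702 in edgeR, but called without FAPI replicate 4 (-0.96, 0.0369) and with DESeq2 (-0.80, 0.0392).

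Kcnj3 (ENSMUSG00000026824.11, chr2:55435970-55598145, plus strand) encodes Kir3.1, which with Kir3.4 from Kcnj5 forms the acetylcholine-activated channel best known from atria and nodal tissue. It had 2.24, 3.51, 2.93 and 3.35 CPM in FAPI hearts, 10.3, 6.81, 10.2 and 7.99 CPM in FapKO hearts, 1.02, 0.954, 2.05 and 1.31 CPM in MI hearts, and 17.3, 16.7 and 20.7 CPM in sham hearts. No group overlapped another, and FapKO hearts lay nearer to sham hearts than to MI hearts on the log2 scale. FAPI hearts were below FapKO hearts by -1.55 ± 0.20 (log2, SE, adjusted p = 1.47e-04 in edgeR), a 0.341-fold level, and this call passed under all 16 alternatives, with differences from -1.66 to -1.43 (adjusted p between 2.62e-11 and 9.14e-04). Against MI hearts it was higher by 1.18 ± 0.23 in FAPI hearts (adjusted p = 0.00121 in edgeR) and by 2.73 ± 0.22 in FapKO hearts (adjusted p = 2.32e-07). The gene shares 31.1% of its exon length, 1621 bases, with Gm26794 on the opposite strand. Gm26794 itself had 0 to 2 counts per FAPI heart, 0 to 3 per FapKO heart, 0 to 1 per MI heart and 2 to 6 per sham heart. Summed levels of 7 atrial myocyte markers were 54.7 to 82.0 CPM in FAPI, 51.7 to 109 CPM in FapKO, 78.2 to 300 CPM in MI and 40.2 to 44.9 CPM in sham hearts. Their mean log2 CPM had another order, at 1.56 in FAPI, 1.79 in FapKO, 2.30 in MI and 1.90 in sham hearts. Of 6 tested, 3 were higher and 1 lower in MI than in sham hearts, beside 37.1% and 32% of all genes. In FAPI against sham hearts 1 was higher and 2 lower, beside 29.2% and 26.5% of all genes. FapKO against sham hearts had 1 higher and 1 lower, beside 19.2% and 20.3% of all genes. The part of these markers in the Kcnj3 values was not tested. Of these 7, Bmp10 was at 0 in every FAPI, FapKO and sham heart and at most 0.0619 CPM in an MI heart.

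Kcnj11 (ENSMUSG00000096146.2, chr7:46093953-46100764, minus strand) encodes Kir6.2, the pore of the ATP-sensitive channel of ventricular muscle, which opens when energy runs short. It had 6.55, 11.4, 5.86 and 11.4 CPM in FAPI hearts, 15.3, 11.3, 16.8 and 11.4 CPM in FapKO hearts, 2.41, 1.70, 5.23 and 2.70 CPM in MI hearts, and 22.8, 21.5 and 21.3 CPM in sham hearts. FAPI replicates 2 and 4 reached the lower FapKO hearts, and FAPI replicates 1 and 3 lay just above the highest MI heart. Kcnj11 was higher than in MI hearts by 1.55 ± 0.29 in FAPI hearts (log2, SE, adjusted p = 9.92e-04 in edgeR) and by 2.19 ± 0.29 in FapKO hearts (adjusted p = 1.48e-05). FAPI hearts were below sham hearts by -1.31 ± 0.29 (adjusted p = 0.00113 in edgeR).

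Per kilobase of exon, Kcnip2 was the most abundant member in sham hearts at 16.6 ± 1.27 CPM per kb, ahead of Kcnj11 at 5.95 ± 0.222. Kcnj3 followed at 3.49 ± 0.412, then Kcnh2 at 3.07 ± 0.248, Kcnq1 at 2.98 ± 0.524 and Kcna5 at 2.65 ± 0.128. The ranges of neighbours among these 4 overlapped. Kcnd2 had 1.58 ± 0.319 and Kcnj2 0.626 ± 0.164, and Kcnd3 was the lowest at 0.199 ± 0.00764 (SD, n = 3). In MI hearts the order at the top was another, with Kcnq1 at 1.01 ± 0.512, Kcnj11 at 0.819 ± 0.418 Kcnip2 at 0.690 ± 0.250, Kcna5 at 0.630 ± 0.105 and Kcnh2 at 0.605 ± 0.226 CPM per kb (SD, n = 4), and neighbours in that order did not differ beyond their spread. FAPI hearts had Kcnip2 at 3.35 ± 0.992 and FapKO hearts at 6.45 ± 1.79 CPM per kb, again the highest of the 9 in each group (SD, n = 4 each). Over the 15 hearts the log2 CPM of pairs of members correlated with Pearson's r between 0.675 for Kcnj2 with Kcna5 and 0.974 for Kcnip2 with Kcnj11. These values share the 4 groups and the cardiomyocyte content of each heart, so they describe the pattern and nothing more.

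Relative to the 24 cardiomyocyte markers, a second quantity in which each library is scaled so that the mean log2 count of those markers is equal in every heart, the 9 genes no longer moved one way. In MI against sham hearts, 3 were higher (Kcnq1 by 1.18 ± 0.29, Kcnj2 by 0.97 ± 0.37 and Kcna5 by 0.83 ± 0.33, log2, SE), 2 were lower (Kcnip2 by -1.77 ± 0.28 and Kcnj3 by -0.98 ± 0.29) and 4 were not called by edgeR. Among all genes tested, 93.4% were called higher and 1.24% lower on this scale, since it holds muscle genes fixed. Kcnip2 and Kcnj3 were thus lower in MI hearts by more than the mean of the 24 markers was, with adjusted p of 2.18e-06 and 0.00242 in edgeR, and both calls held with the sarcomere or the other markers alone and without any single heart. Single markers differed about as much as Kcnj3: Hrc, a calcium store protein, averaged 22.3 CPM in MI and 339 CPM in sham hearts, and Cox8b, a subunit of cytochrome oxidase, 630 CPM in MI and 8797 CPM in sham hearts. The calls of Kcnj2 and Kcna5 were lost with the 12 sarcomere markers alone (adjusted p = 0.0948 and 0.134) and without some single hearts: sham replicate 1 or 3 for Kcnj2, and sham replicate 1 or 2 or MI replicate 1 or 4 for Kcna5. The Kcnj2 call was also lost in a fit with the replicate number as a block (0.0531). The Kcna5 call was also lost without a filter on low counts (0.0537). The marker lists themselves did not move as one, since the sarcomere markers had a median of 0.57 and the other 12 a median of -0.71 on this scale.

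In FAPI against MI hearts, 4 of the 9 were called lower relative to the markers: Kcnj2 by -1.48 ± 0.35, Kcnd3 by -1.17 ± 0.37, Kcnh2 by -0.99 ± 0.26 and Kcnq1 by -0.59 ± 0.26 (log2, SE, adjusted p between 3.80e-04 and 0.0342 in edgeR). Among all genes tested 94% were called lower on this scale. Kcnip2 was the sole member with a positive value, 0.54 ± 0.26, which was not called (adjusted p = 0.0560) but was without MI replicate 2, FAPI replicate 3 or FAPI replicate 4 (adjusted p between 0.0343 and 0.0374). The call of Kcnq1 was lost without MI replicate 4, FAPI replicate 1 or FAPI replicate 2 (adjusted p between 0.0524 and 0.123) and with the sarcomere markers alone (-0.53, 0.0709). It was also lost in a fit with the replicate number as a block (0.0721) and without a filter on low counts (0.117).

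In FapKO against MI hearts, 2 of the 9 were called higher relative to the markers, Kcnip2 by 1.04 ± 0.27 (adjusted p = 6.95e-04 in edgeR) and Kcnj3 by 0.58 ± 0.27 (adjusted p = 0.0449), beside 0.551% of all genes. A further 5 were called lower, between -1.29 ± 0.31 for Kcna5 and -0.86 ± 0.37 for Kcnd3, beside 94.1% of all genes. Kcnd2 and Kcnj11 were not called and lay near 0, Kcnj11 at 0.08 ± 0.25. The Kcnip2 call held under all 12 alternatives (0.86 to 1.22, adjusted p between 3.02e-04 and 0.00461). That of Kcnj3 was lost without FapKO replicate 1, 3 or 4 or MI replicate 1, 2 or 4 (adjusted p between 0.0584 and 0.116) and with the 12 non-sarcomere markers alone (0.39, 0.141). The Kcnj3 call was also lost in a fit with the replicate number as a block (0.0916) and without a filter on low counts (0.155). The call of Kcnd3 was lost without MI replicate 1, 2 or 4 or FapKO replicate 2, 3 or 4 (adjusted p between 0.0569 and 0.0746). It was also lost with the sarcomere markers alone (-0.69, 0.0950) and without a filter on low counts (0.0966).

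Against sham hearts, FAPI hearts had 3 members lower relative to the markers, Kcnj3 by -1.51 ± 0.28, Kcnip2 by -1.23 ± 0.27 and Kcnd2 by -0.87 ± 0.33 (log2, SE, adjusted p = 1.13e-04, 5.84e-04 and 0.0227 in edgeR), beside 3.09% of all genes. The Kcnd2 call was lost without sham replicate 2 or 3 or FAPI replicate 3 (adjusted p between 0.0590 and 0.0851). It was also lost with the non-sarcomere markers alone (-0.65, 0.0681) and without a filter on low counts (0.0642). FapKO hearts had 1, Kcnip2 by -0.73 ± 0.27 (adjusted p = 0.0446 in edgeR), beside 1.19% of all genes, and this call was lost without any single sham heart and without FapKO replicate 1, 2 or 4 (adjusted p between 0.0788 and 0.143). It was also lost in a fit with the replicate number as a block (0.117) and without a filter on low counts (0.118). FAPI against FapKO hearts had 1 member lower, Kcnj3 by -1.11 ± 0.26 (adjusted p = 0.0172 in edgeR), beside 0.316% of all genes, and it was lost without FAPI replicate 1, FapKO replicate 1 or FapKO replicate 3 (adjusted p between 0.0691 and 0.0895). The replicate number as a block ended this call too (0.0510). Kcnip2 was lower by -0.51 ± 0.26 in that comparison and not called (adjusted p = 0.183).

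**Figure D3:**
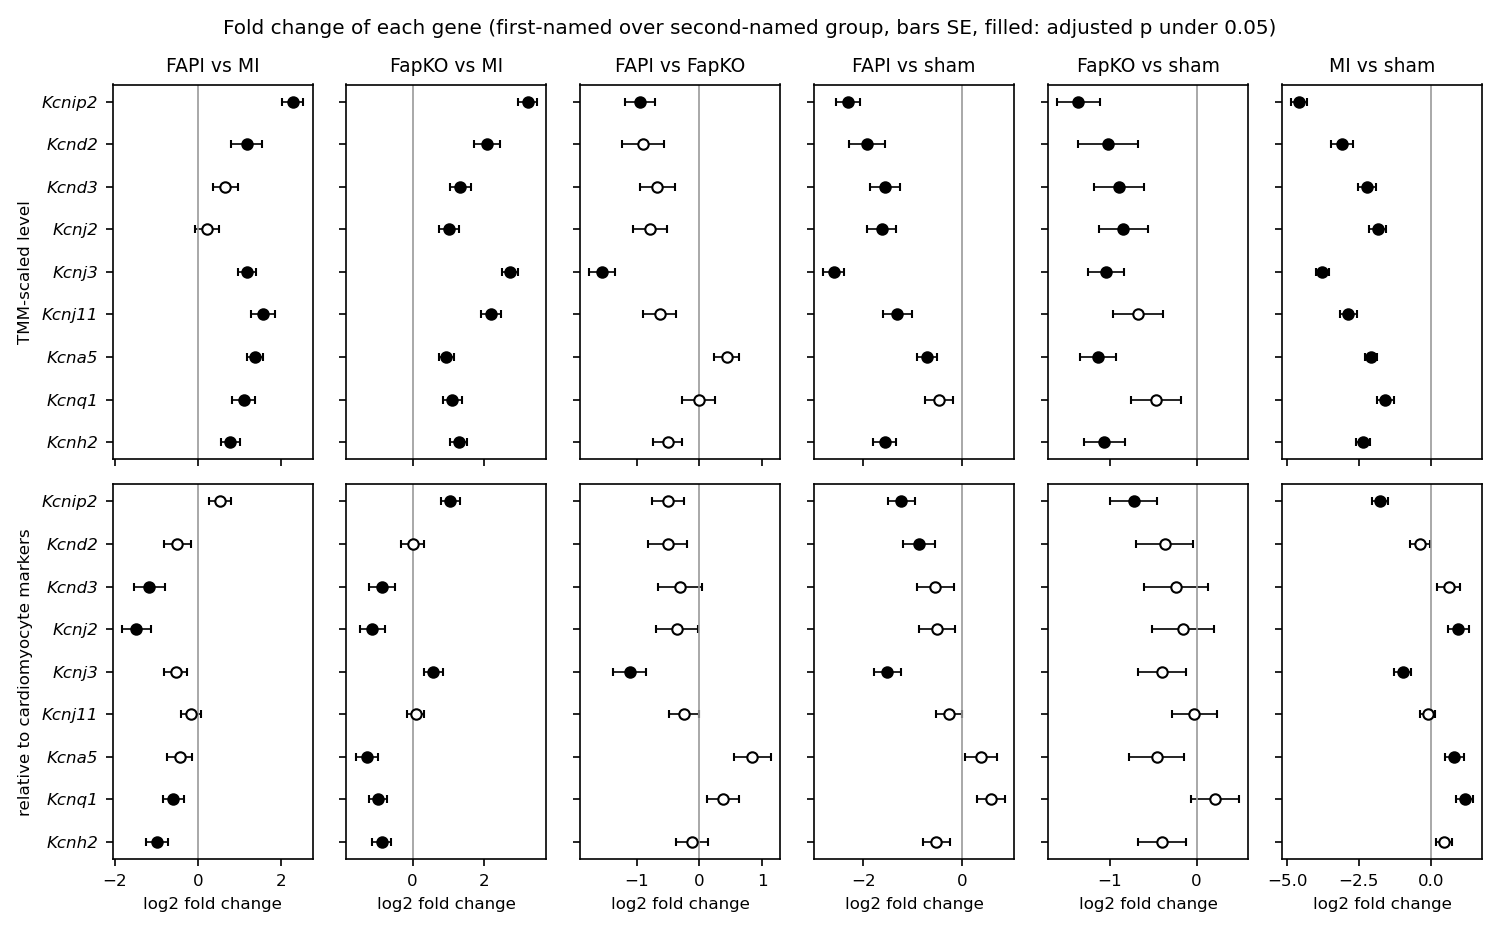
Log2 fold change of each gene in the 6 comparisons (columns, first-named over second-named group), as TMM-scaled level (upper row) and relative to 24 cardiomyocyte markers (lower row). Bars are SE and filled points have an adjusted p under 0.05 in edgeR, and in the last column all 9 points are left of 0 above, while below them Kcnip2 and Kcnj3 are left of 0 and Kcnq1, Kcnj2 and Kcna5 right of it among the filled points.

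**Figure D4:**
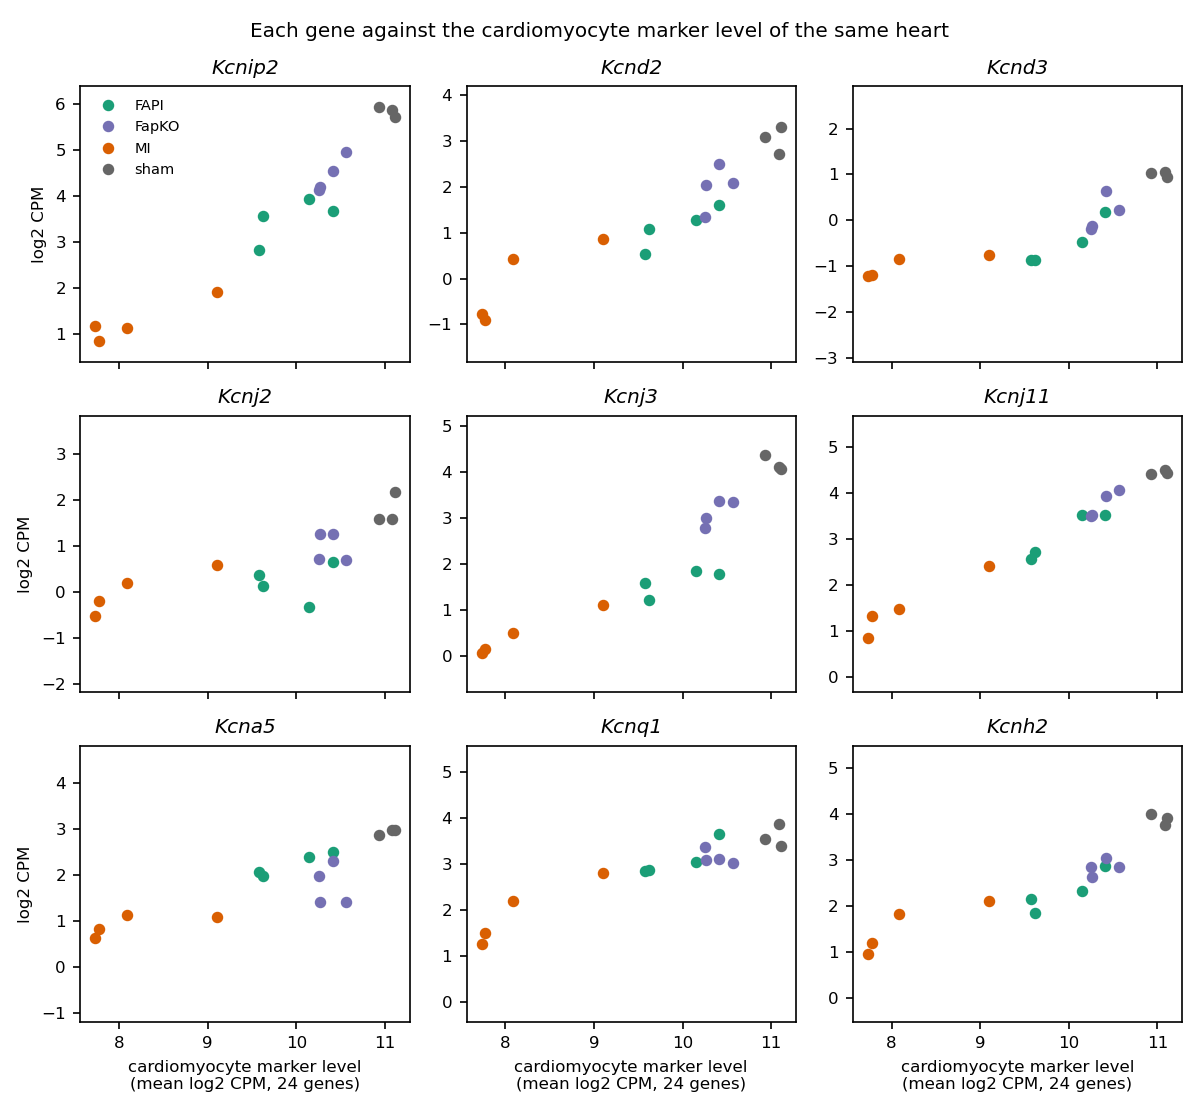
Log2 CPM of each gene (vertical, each panel spanning the same number of log2 units) against the mean log2 CPM of 24 cardiomyocyte markers in the same heart (horizontal), coloured by group. Kcnj11 follows the marker level closely across the 15 hearts, and Kcnj2 in 3 of the 4 FAPI hearts lies below MI replicate 3. Kcnj3 in FAPI replicates 2 and 4 lies below FapKO hearts of like marker level. FAPI replicates 1 and 3, at marker levels of 9.62 and 9.58, have no FapKO heart of like marker level.

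Partner subunits of these channels split by gene, as the plot of other potassium channel genes shows. Of 15 listed, 10 were tested: in MI against sham hearts 5 were lower and 4 higher, beside 32% and 37.1% of all genes, with a median log2 difference of -1.10. Relative to the cardiomyocyte markers 7 were higher and 0 lower, beside 93.4% of all genes higher, and Abcc9 and Kcne1 were among the higher ones there (0.95 ± 0.28 and 0.93 ± 0.34, adjusted p = 0.00272 and 0.0125 in edgeR). On that scale 8 were lower and 0 higher both in FAPI and in FapKO against MI hearts, beside 94% and 94.1% of all genes lower. By TMM-scaled level, Abcc8, Abcc9, Kcnj5, Kcnj12 and Kcne1 were the 5 partners lower in MI than in sham hearts. Abcc8 and Abcc9 are sulfonylurea receptors that assemble with Kir6 pores, Kcnj12 encodes Kir2.2, and Kcne1 is the partner of Kcnq1. The 4 higher there were Kcne3 and Kcne4, small single-pass subunits, and Kcnab1 and Kcnab2, which encode Kv beta subunits. In that comparison Abcc9 had -1.94 ± 0.17 (adjusted p = 5.26e-08 in edgeR) and Kcnj5 -2.45 ± 0.22 (5.56e-08). In FAPI against MI hearts 4 were higher and 1 lower, beside 17.9% and 11.9% of all genes. Abcc8 had 1.53 ± 0.32 there (adjusted p = 0.00240 in edgeR) and Kcnj12 1.30 ± 0.32 (0.00685). In FapKO against MI hearts 4 were higher and 4 lower, beside 25% and 26% of all genes. Kcnj5 had 1.30 ± 0.21 there (adjusted p = 7.78e-05 in edgeR) and Abcc9 1.09 ± 0.16 (3.78e-05). Between FAPI and FapKO hearts 2 were higher and 1 lower, beside 7.05% and 6.12% of all genes. Kcne4, an inhibitory partner of Kv channels, was higher in FAPI hearts by 0.73 ± 0.21 (adjusted p = 0.0305 in edgeR) and Abcc9 lower by -0.57 ± 0.16 (0.0261). The count of partners called between FAPI and FapKO hearts lay between 0 and 5 when single hearts were left out. With total-count scaling 2 partners were higher and 4 lower in FAPI than in MI hearts, and 5 were higher and 5 lower in MI than in sham hearts. Among all genes with that scaling, 1448 of 9933 called were higher in FAPI than in MI hearts. In MI against sham hearts it was 12663 of 14700.

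Other potassium channel pores of heart muscle numbered 17, of which 13 were tested. In MI against sham hearts 9 were lower and 2 higher (Kcnk1 and Kcnd1), beside 32% and 37.1% of all genes, with a median of -1.50. Relative to the cardiomyocyte markers 10 were higher and 0 lower in that comparison, beside 93.4% of all genes higher. On this scale 11 were lower in FAPI than in MI hearts and 10 lower in FapKO than in MI hearts, with 0 higher in both. Among all genes, 94% and 94.1% were called lower there. By TMM-scaled level in MI against sham hearts, Kcnn2, a small-conductance calcium-activated pore, had -3.001 ± 0.22 (adjusted p = 9.80e-09 in edgeR). Kcnj8, the Kir6.1 pore of vascular ATP-sensitive channels, had -2.31 ± 0.19 (2.35e-08). In FAPI against MI hearts 7 were higher and 0 lower, beside 17.9% and 11.9% of all genes. In FapKO against MI hearts 7 were higher and 2 lower, beside 25% and 26% of all genes. Kcnn2 rose by 1.48 ± 0.21 in FAPI hearts (adjusted p = 2.02e-04 in edgeR) and by 1.84 ± 0.21 in FapKO hearts (4.20e-06). Kcna7, which encodes Kv1.7, was the sole one called between FAPI and FapKO hearts, at -1.05 ± 0.27 (adjusted p = 0.0187 in edgeR), beside 6.12% of all genes called lower. No gene of the list was called there without FAPI replicate 3, FapKO replicate 1 or FapKO replicate 3. With total-count scaling 6 of these pores were lower and 4 higher in MI than in sham hearts, and 5 were higher and 2 lower in FAPI than in MI hearts. Among all genes with that scaling, 12663 of 14700 called were higher in MI than in sham hearts. In FAPI against MI hearts it was 1448 of 9933.

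Potassium channel genes listed as vascular or immune were mostly higher in MI hearts. Of 11 listed, 8 were tested, of which Kcnj8, Abcc9 and Kcne3 also stand in the lists above. In MI against sham hearts 6 were higher and 2 lower (Kcnj8 and Abcc9), beside 37.1% and 32% of all genes, with a median of 1.89. Relative to the cardiomyocyte markers all 8 were higher, beside 93.4% of all genes. By TMM-scaled level in FAPI against MI hearts, 2 were higher (Kcnj8 and Abcc9) and 2 lower, beside 17.9% and 11.9% of all genes. Among the lower was Kcnk6, a background potassium channel of the K2P family, at -0.70 ± 0.17 (adjusted p = 0.00513 in edgeR). In FapKO against MI hearts 2 were higher and 5 lower, beside 25% and 26% of all genes. With total-count scaling 1 was higher and 6 lower in FAPI than in MI hearts, where 1448 of 9933 called genes were higher with that scaling. Marker lists of several cell types differed too, and not all in the same direction. Of 7 endothelial markers, 0 were higher and 3 lower in MI than in sham hearts. In FAPI against MI hearts 0 of these 7 were higher and 1 lower, and in FapKO against MI hearts 3 were higher and 0 lower. Of the 8 macrophage markers, all 8 were higher in MI than in sham hearts, 5 were lower in FAPI than in MI hearts and 8 were lower in FapKO than in MI hearts. Their summed levels were 1563 to 2062 CPM in FAPI, 898 to 1384 CPM in FapKO, 2459 to 3139 CPM in MI and 757 to 805 CPM in sham hearts. The 8 fibroblast markers were all higher in MI than in sham hearts, with 3 lower in FAPI and 6 lower in FapKO than in MI hearts. Of 7 smooth muscle and pericyte markers, 6 were higher and 1 lower in MI than in sham hearts, 4 lower and 1 higher in FAPI than in MI hearts, and 5 lower and 1 higher in FapKO than in MI hearts. Their mean log2 CPM was 4.31 in FAPI, 4.01 in FapKO, 4.68 in MI and 3.48 in sham hearts. Their summed levels were 337 to 360 CPM in FAPI, 326 to 391 CPM in FapKO, 343 to 419 CPM in MI and 368 to 400 CPM in sham hearts. By the sum, the range of MI hearts thus held that of sham hearts. The mean log2 CPM of the fibroblast markers was 8.78 in FAPI, 8.34 in FapKO, 9.15 in MI and 7.23 in sham hearts. The part of these cell types in the channel values was not tested.

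**Figure D5:**
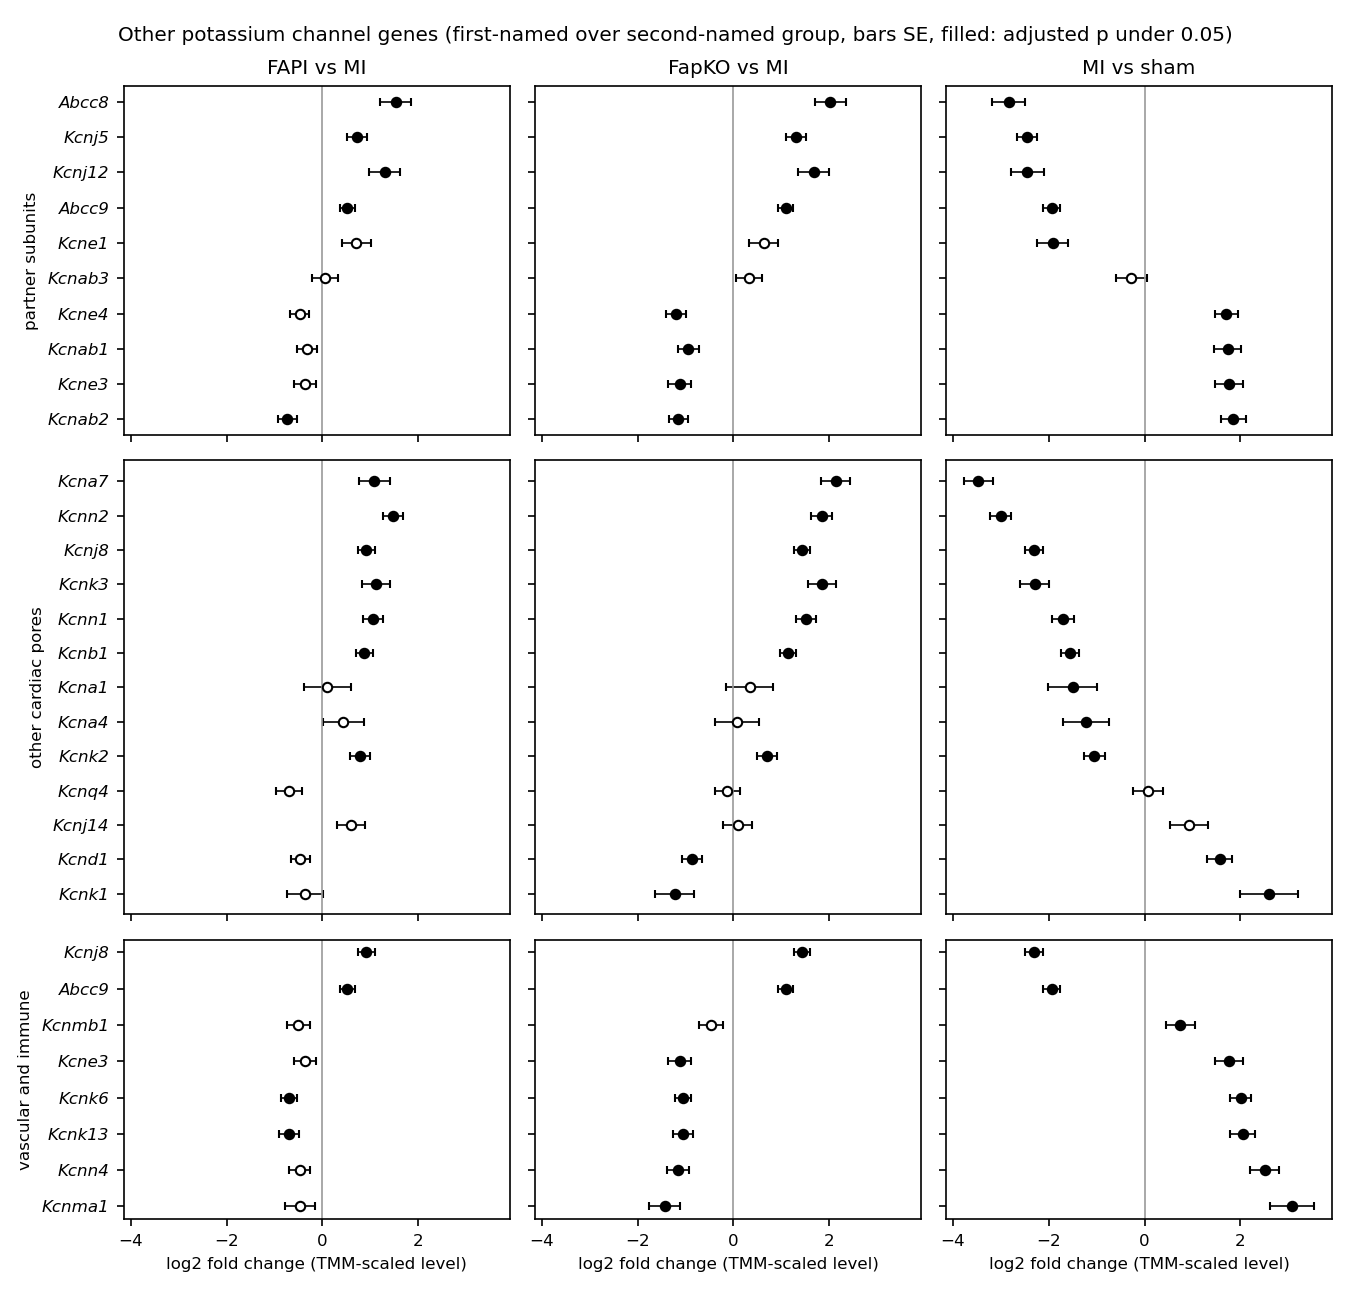
Log2 fold change (TMM-scaled level, bars SE, filled where the adjusted p is under 0.05 in edgeR) of the tested partner subunits (top), other cardiac pores (middle) and vascular and immune channels (bottom) for FAPI over MI, FapKO over MI and MI over sham hearts. Genes lower in MI than in sham hearts lie mostly to the right of 0 in the first 2 columns, while Kcnma1, Kcnn4, Kcnk13, Kcnk6 and Kcne3 are higher in MI than in sham hearts and lower in FapKO than in MI hearts.

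Transcription factors linked to potassium channel genes in earlier work were a list of 10, all tested. In MI against sham hearts 7 were lower and 2 higher (Nfatc3 and Nfatc4, calcium-dependent factors), beside 32% and 37.1% of all genes, with a median of -1.57. Relative to the cardiomyocyte markers, which were also lower, 9 of the 10 were higher in MI than in sham hearts and 0 lower, beside 93.4% of all genes higher, with Klf15 at 0.92 ± 0.27 and Tbx5 at 0.68 ± 0.31 (adjusted p = 0.00290 and 0.0387 in edgeR). By TMM-scaled level in MI against sham hearts, Tbx5, a T-box factor of heart development and conduction, had -2.20 ± 0.19 (adjusted p = 4.43e-08 in edgeR). Klf15, the factor whose box is marked in the sequences above, had -1.96 ± 0.18 (6.67e-08). In FAPI against MI hearts 4 were higher and 2 lower, beside 17.9% and 11.9% of all genes. Irx4, a homeobox factor of ventricular muscle, had 1.48 ± 0.28 there (adjusted p = 0.00101 in edgeR) and Gata4 0.91 ± 0.19 (0.00194). In FapKO against MI hearts 7 were higher and 2 lower, beside 25% and 26% of all genes. Irx4 had 1.89 ± 0.28 there (adjusted p = 3.63e-05 in edgeR) and Irx3 1.63 ± 0.25 (6.60e-05). With total-count scaling 3 were higher and 5 lower in MI than in sham hearts, 4 higher and 3 lower in FAPI than in MI hearts, and 6 higher and 3 lower in FapKO than in MI hearts. Among all genes with that scaling, 12663 of 14700 called were higher in MI than in sham hearts. In FAPI against MI hearts it was 1448 of 9933, and in FapKO against MI hearts 2076 of 12531. On the TMM scale Klf15 and Tbx5 were below sham hearts in both groups: Klf15 by -1.70 ± 0.17 in FAPI and -1.20 ± 0.17 in FapKO hearts, and Tbx5 by -2.06 ± 0.19 in FAPI and -1.24 ± 0.18 in FapKO hearts (adjusted p between 3.63e-07 and 1.36e-04 in edgeR). Tbx5 was lower in FAPI than in FapKO hearts by -0.83 ± 0.18 (adjusted p = 0.00719), and Klf15 was not called there (-0.51 ± 0.16, 0.0503). Relative to the cardiomyocyte markers Klf15 was not called against sham hearts in FAPI (-0.58, 0.0518) or FapKO hearts (-0.54, 0.111). On that scale Tbx5 was lower than in sham hearts in FAPI hearts (-0.98, 0.00665), and was not called in FapKO against sham hearts (-0.57, 0.132) or in FAPI against FapKO hearts (-0.41, 0.290).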

How the data were processed

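RNA was sequenced from border-zone tissue of 15 mouse hearts and from 6 libraries of cultured fibroblasts. The deposited values are raw counts per gene in each library. Per the submitters' processing notes, STAR, HTSeq and mm10 were used. Their versions, the strand setting and any filters were not stated there. A series table was not used; it has 6 value columns.

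All 15 hearts were fitted together with edgeR 4.0.16 (limma 3.58.1, R 4.3.3): TMM scaling, filterByExpr, quasi-likelihood F test, Benjamini-Hochberg adjustment over 17064 genes and a threshold of 0.05. Each standard error was taken from the fit as |log2 fold change| over √F. CPM used TMM library sizes, and CPM per kb used summed exon length. For levels relative to cardiomyocyte markers, library sizes were set so that the mean log2 count of 24 markers was equal in every heart. Ratios of counts (0.5 added) were compared with exact permutation tests in Python 3.11.15 (scipy 1.17.1). DESeq2 1.42.0, limma-voom, other scalings and filters, fits of 2 groups and leaving out each heart were alternatives. The fit was tested on simulated data. Every member is named, and from each list of other potassium channel genes or factors up to 2 genes with the smallest p per comparison. Other genes were named after their values were seen. Members and lists were chosen with earlier results of these data known.

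Depth was 18474138 to 37287355 counts per heart, so a member with few counts has an appreciable counting error. Replicates of a group differed by more than sampling noise. Numbers shared between groups were not taken to pair the hearts.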

Additional observations from a re-analysis of the deposited data

Results flagged for a closer look

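Kcnj3 and Kcnip2 differed between FAPI and FapKO hearts: the log2 difference of FAPI over FapKO hearts was -1.55 ± 0.20 for Kcnj3 and -0.94 ± 0.23 for Kcnip2 (SE, adjusted p = 1.47e-04 and 0.0146 in edgeR). Because both are set against the same MI hearts, this is the test of the difference between the 2 contrasts. All 4 FAPI hearts lay below all 4 FapKO hearts in both genes. The mean cardiomyocyte marker level was 9.94 log2 CPM in FAPI and 10.4 log2 CPM in FapKO hearts, and its part in these differences was not tested beyond the values relative to the markers, -1.11 for Kcnj3 (adjusted p = 0.0172) and -0.51 for Kcnip2 (adjusted p = 0.183). The relative call of Kcnj3 was lost without FAPI replicate 1, FapKO replicate 1 or FapKO replicate 3 (adjusted p between 0.0691 and 0.0895), and with the replicate block (0.0510). The level call of Kcnip2 was lost without FapKO replicate 3 (0.0657).

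Kcnh2 was counted in cultured fibroblasts, which no comparison above uses. It had 4, 0 and 0 counts in fibroblasts in co-culture and 8, 10 and 9 counts in fibroblasts alone, where a count of 0 allows up to 3. Libraries in co-culture were shallower, with 4735337 to 6346015 counts against 12871240 to 15650221 in fibroblasts alone. In CPM of the library total, Kcnh2 was at 0.845, 0 and 0 in co-culture and at 0.574, 0.777 and 0.575 in fibroblasts alone, so the highest of the 6 values was in co-culture. Among 27 sets of 4 hearts of 1 group for 1 gene, no heart stood far from the others by Dixon's test, which flags about 1 in 20 sets by chance.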

How the results depend on the processing

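With total-count scaling 4 members were called in FapKO against sham hearts, and 4 uncalled values changed sign: Kcnj2 in FAPI against MI hearts to -0.18, and Kcnq1 to 0.17 in FAPI and 0.079 in FapKO against sham hearts and to 0.10 in FAPI against FapKO hearts. In FAPI against FapKO hearts 5 members were called without a filter, where Kcnq1 was 0.00261, and 4 with DESeq2. Relative to the markers, 3 members were called in MI against sham hearts with the 12 sarcomere markers alone. With the 12 non-sarcomere markers alone Kcnj11 was 0.18 in MI against sham, -0.11 in FapKO against MI and 0.071 in FapKO against sham hearts, Kcnd2 was -0.19 in FapKO against MI hearts, Kcnh2 was 0.011 in FAPI against FapKO hearts, and 2 members were called there. No member was called relative to the markers in FapKO against sham hearts without a filter (0, and Kcnip2 at an adjusted p of 0.118).

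Leaving out single hearts gave 4 to 7 members called in FapKO against sham hearts and 1 to 5 in FAPI against FapKO hearts, where Kcnq1 ran between -0.24 and 0.078. Relative to the markers it gave 3 to 7 in MI against sham, 0 to 1 in FapKO against sham and 0 to 2 in FAPI against FapKO hearts. On that scale Kcnd2 ran between -0.17 and 0.25 in FapKO against MI hearts, and in FapKO against sham hearts Kcnj2 between -0.31 and 0.034 and Kcnj11 between -0.076 and 0.016. The log2 ratio of Kcnip2 to Kcnd2 ran between -0.20 and 0.077 in FAPI against FapKO hearts, that of Kcnd3 to Kcnd2 between -0.034 and 0.31 in FapKO against sham hearts, and Kcnq1ot1 between -0.16 and 0.12 in FAPI against MI hearts. The cause of these shifts was not tested.

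A fit with the replicate number as a block called 9 members in MI against sham, 7 in FAPI against MI, 9 in FapKO against MI, 8 in FAPI against sham, 7 in FapKO against sham and 2 in FAPI against FapKO hearts, the same counts as without the block. Relative to the markers it called 0 in FapKO against sham and 0 in FAPI against FapKO hearts. Same-numbered hearts correlated between -0.26 and 0.30 (median 0.07, 21 pairs), so the numbers were not taken to pair the hearts. Depth limits Kcnd3 most, with 11 to 36 counts per heart.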

Other observations

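Cultured fibroblasts held few reads of these genes. Kcnip2, Kcnd2, Kcnj3 and Kcnj11 had 0 counts in all 6 fibroblast libraries, which held 4735337 to 15650221 counts each. Kcnd3, Kcnj2, Kcna5 and Kcnq1 had between 0 and 3 counts per library.

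Across the 15 hearts, the genes whose log2 CPM followed Kcnip2 most closely were Slc38a3, an amino acid transporter (Pearson's r = 0.995), and Acads, an enzyme of short-chain fatty acid oxidation (0.995). For Kcnj11 it was Chchd10, a mitochondrial protein (0.994), for Kcnh2 Cacnb2, a calcium channel subunit (0.993), and for Kcnj3 Pank1, an enzyme of coenzyme A synthesis (0.992). For Kcnq1 it was Tnnt2, cardiac troponin T (0.970), for Kcnd2 Map3k20, a kinase (0.979), for Kcnd3 Rgs6, a regulator of G protein signalling (0.979), and for Kcnj2 Fgf16, a growth factor (0.956). Kcna5 stood somewhat apart, with the mitochondrially encoded mt-Co1 first (0.934). These hearts share the 4 groups and their muscle content, so the values describe a pattern only.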
